A study of Mus musculus with 12 samples.

Results

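Mitochondrial fatty acid oxidation was followed through 10 genes of the pathway, chosen by name from the 56748 genes of the deposited table: Cpt1a, Cpt1c, Cpt2, Slc25a20, Acadm, Acadl, Acadvl, Hadha, Hadhb and Acaa2. All 10 were found, once each, and their values were read in all 12 libraries of the study. The libraries came from mice 2 weeks old that carried the RiboTag allele on both chromosomes and the i75-Rod-Cre transgene, in which a rhodopsin promoter drives Cre in rods. Littermate controls were RiboTag;Shp2fl/+;i75-Rod-Cre, so their rods lost 1 copy of the gene for Shp2 (Ptpn11), a tyrosine phosphatase, and they are called Het here. Knockout mice (KO) were RiboTag;Shp2fl/fl;i75-Rod-Cre and lost both copies in rods, while the other retinal cells kept the floxed gene. From each genotype there were 3 libraries of rod TRAP RNA, the messages pulled down with the HA-tagged ribosomes of rods, and 3 libraries of whole-retina RNA. The sample titles called the controls wt, whereas their genotype label was Shp2_Rodhet. No source used here says whether the libraries of a group came from separate mice, so the tests measure the spread between libraries, which may be partly technical.

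Mitochondria burn fatty acids in a fixed order. Carnitine palmitoyltransferase 1 on the outer membrane links the activated fatty acid to carnitine, the carrier Slc25a20 takes it across the inner membrane, and Cpt2 returns it to coenzyme A inside. An acyl-CoA dehydrogenase suited to the chain length then makes the first double bond, the trifunctional protein of Hadha and Hadhb carries out the following steps on long chains, and a thiolase releases acetyl-CoA. Photoreceptors are known for a high use of glucose, and retinal mitochondria can also oxidise fatty acids.

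The promoter sequences of the members whose levels differed most between rods and retina are shown here, with that of the trifunctional protein pair, since the gene pairs Cpt1a and Cpt1c, and Acadm and Acadl, carry out related steps and went opposite ways. They are RefSeq promoter sequences of GRCm38.p6, written 5′ to 3′ on the gene's strand, and each is the stretch before the start site that no annotated exon covers. Capitals mark matches on either strand to AGGTCA, the half-site read by nuclear receptors, and would also mark TAATCC, a site of the photoreceptor factor CRX, which none of them held.
Cpt1a, chr19:3323051-3323284, + strand: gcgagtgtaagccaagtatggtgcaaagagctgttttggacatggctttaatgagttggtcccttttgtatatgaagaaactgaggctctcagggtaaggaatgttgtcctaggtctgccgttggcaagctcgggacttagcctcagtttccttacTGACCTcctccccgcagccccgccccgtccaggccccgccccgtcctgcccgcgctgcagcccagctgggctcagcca
Cpt1c, chr7:44974852-44975101, - strand: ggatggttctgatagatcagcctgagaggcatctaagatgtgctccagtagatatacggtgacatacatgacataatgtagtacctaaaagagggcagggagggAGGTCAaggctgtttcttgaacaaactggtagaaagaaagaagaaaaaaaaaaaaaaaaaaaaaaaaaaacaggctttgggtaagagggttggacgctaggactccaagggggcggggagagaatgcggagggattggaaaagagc
Acadm, chr3:153944644-153944893, - strand: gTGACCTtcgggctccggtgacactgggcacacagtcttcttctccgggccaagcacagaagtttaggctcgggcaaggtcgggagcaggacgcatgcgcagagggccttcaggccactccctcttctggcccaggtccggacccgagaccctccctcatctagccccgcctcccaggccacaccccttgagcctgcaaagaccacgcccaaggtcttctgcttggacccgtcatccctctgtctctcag
Acadl, chr1:66863310-66863559, - strand: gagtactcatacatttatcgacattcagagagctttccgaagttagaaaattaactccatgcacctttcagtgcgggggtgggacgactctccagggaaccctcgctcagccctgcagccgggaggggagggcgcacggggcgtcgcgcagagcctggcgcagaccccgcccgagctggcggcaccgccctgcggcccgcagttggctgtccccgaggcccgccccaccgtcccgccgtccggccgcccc
Hadhb, chr5:30155163-30155247, + strand: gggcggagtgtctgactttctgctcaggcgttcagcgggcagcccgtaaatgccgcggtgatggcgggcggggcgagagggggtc

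Promoter windows were found for 9 of the 10 members, each running from 250 bases before to 50 bases after the start. AGGTCA was found in the windows of Cpt1a, Cpt1c, Acadm and Acadvl, and 16.3% of 32851 windows of this length hold it. The longer AAGGTCA, of which AGGTCA is a part, was found in the window of Acadm and is held by 4.72% of all windows. TAATCC, in 7.06% of all windows, was found in none of the 9. The windows differed in CpG content, from 8 CpG in Cpt1c to 34 in Acadl, beside a median of 7 over all windows. Hadha and Hadhb stand head to head on chromosome 5 with 85 bases between the annotated genes, and these are the bases printed for Hadhb.

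The deposited values are reads scaled to a common total within each fraction and rounded, an inference from the table and not a stated step. Totals ran from 14525527 to 14527992 in retina and from 16263948 to 16265259 in rods, and the reads behind them were estimated at 9990000 to 19220000 and 11900000 to 25300000. At these depths 3 reads made up at most 3e-05% of a library. All 8 rod markers were higher in Het rods than in Het retina (median log2 fold change 1.82) and made up 13.9% to 15.7% of the Het rod values. All 9 Müller glia markers were lower (median -4.89), as were all 6 cone markers (median -1.17). Transcripts of the mitochondrial genome, which cytosolic ribosomes do not read, made up 5.52% to 9.88% of Het retina and 0.0661% to 0.0880% of Het rod values. Lens markers varied between libraries and made up 0.000716% to 4.81% of retina values. Ptpn11 was 2511, 2439 and 2431 in Het rods against 1735, 2139 and 1971 in KO rods, lower in every KO library, with a log2 fold change of -0.25 (SE 0.09, adjusted p = 0.062) that did not pass the threshold. Its reads outside the deleted part remain countable, and the Het rods carried 1 deleted copy themselves. The part of either in this value was not tested.

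In the mean of Het rods, counted per kb of transcript with each library set to a total of 1000000, Acadm stood first at 141 ± 11.2 (SD, n = 3) and Cpt1a second at 94.5 ± 5.04. Hadhb (40.6 ± 2.34), Hadha (21.1 ± 0.979), Acadvl (16.9 ± 2.48), Cpt2 (10.9 ± 0.896), Slc25a20 (6.79 ± 1.22), Acaa2 (3.10 ± 0.861), Acadl (0.931 ± 0.210) and Cpt1c (0.242 ± 0.159) followed. No neighbours in this order overlapped between libraries of Het rods. In Het retina the order of the first 5 was the same, from Acadm at 65.0 ± 5.39 and Cpt1a at 55.0 ± 5.58 to Acadvl at 15.7 ± 1.36, which overlapped Hadha at 18.0 ± 0.857. There, Acadl (9.52 ± 3.18), Acaa2 (9.08 ± 1.48), Cpt2 (7.75 ± 1.1) and Slc25a20 (7.14 ± 1.1) came next and overlapped each with the next, and Cpt1c stood last at 4.55 ± 1.14. Levels per kb rest on the longest coding transcript of GENCODE for GRCm38. The 10 members together made up 0.0565% to 0.0636% of the values in Het retina and 0.0897% to 0.0997% in Het rods.

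**Figure D1:**
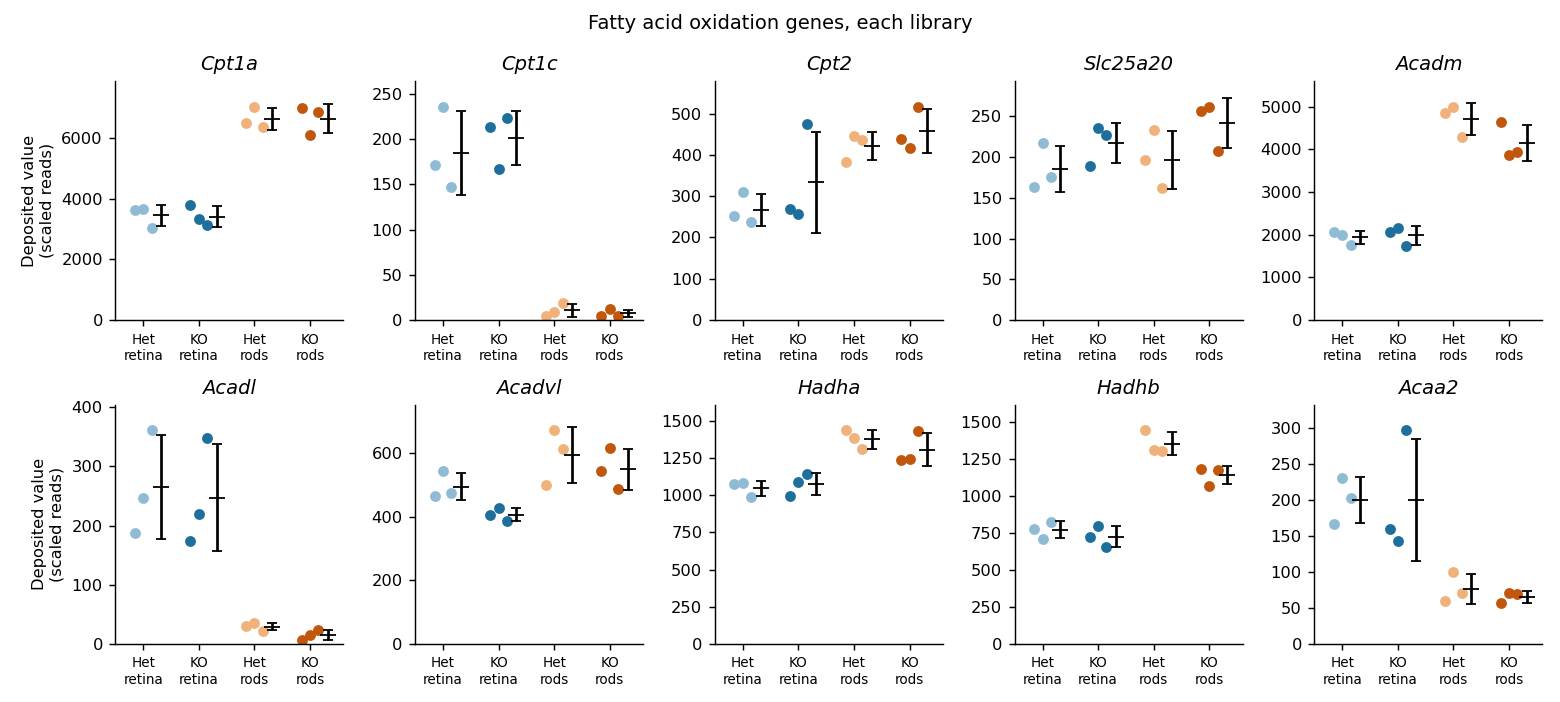
Deposited values (scaled reads, linear axes from 0) of the 10 genes in each of the 12 libraries, by group, with the mean and SD of 3 libraries as a black bar. Values of Cpt1c, Acadl and Acaa2 lie lower in all rod libraries than in all retina libraries, whereas those of Cpt1a, Acadm and Hadhb lie higher.

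The comparison of Het rods with Het retina asked which steps of the pathway are carried by messages under translation in rods. Of the 10 members, 6 were called higher in Het rods (Acadm, Cpt1a, Hadhb, Cpt2, Hadha and Acadvl), 3 were called lower (Cpt1c, Acadl and Acaa2) and Slc25a20 was not called. A call required an adjusted p below 0.05 in limma, over all genes tested, and a log2 fold change beyond 0.5. Over the 16110 genes tested, 21.4% were called higher and 36.8% lower, so that calls of either kind are common in this comparison. Cpt1c passed the filter on low values through its retina libraries, so its call was bound to be a fall. The median log2 fold change of the members was 0.57, beside -0.11 over all genes tested. Fewer rods and less RNA per rod cannot be told apart in such samples, and neither can the cell type and the pull-down itself, which set the fractions apart together.

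The size of these differences depended on the scaling between fractions. Scaling by library size alone, in place of TMM, lowered the median of all genes by 0.41 on the log2 scale and cut the share of higher calls among all calls from 36.8% to 13.5%. Values under both are therefore given for the members that move across the threshold. Ratios of members within a library, given last, do not depend on it.

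Cpt1a, the carnitine palmitoyltransferase of most tissues and the step that malonyl-CoA inhibits, was 3633, 3670 and 3046 in Het retina and 6506, 7032 and 6359 in Het rods. The groups did not overlap, and the rod level was 2.29-fold higher (95% interval 1.91 to 2.75, log2 fold change 1.19, SE 0.11, limma adjusted p = 2.89e-05), or 0.78 on the log2 scale with library size alone. Cpt1c, the brain form, which lies in the endoplasmic reticulum and has little transferase activity, was 171, 236 and 147 in Het retina and only 5, 9 and 19 in Het rods. The log2 fold change was -3.74 (SE 0.42, adjusted p = 7.07e-05), and the estimated reads behind its rod values were 4 to 16 a library. The third form, Cpt1b of muscle, was at 3 in 1 retina library and 0 in the other 11 libraries.

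Slc25a20, the carnitine and acylcarnitine carrier, was 163, 217 and 175 in Het retina and 196, 233 and 162 in Het rods, and the groups overlapped. Its log2 fold change was 0.33 (95% interval -0.15 to 0.81, adjusted p = 0.20) and turned to -0.08 with library size alone. Cpt2, on the inner side of the membrane, was 253, 310 and 238 in Het retina and 382, 447 and 435 in Het rods. It was called higher (log2 fold change 0.91, SE 0.17, adjusted p = 0.0013) and lost the call with library size alone, at 0.50.

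The acyl-CoA dehydrogenases went different ways. Acadm, for medium chains, was 2055, 1995 and 1752 in Het retina and 4843, 4997 and 4289 in Het rods, 2.89-fold higher (95% interval 2.41 to 3.46, log2 fold change 1.53, adjusted p = 6.94e-06). This was the largest rise among the 10 genes, and the groups lay far apart. Acadl, for long chains, was 187, 247 and 361 in Het retina and 30, 35 and 22 in Het rods, with a log2 fold change of -2.84 (SE 0.30, adjusted p = 5.21e-05).

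Acadvl, the dehydrogenase of the inner membrane for very long chains, was 465, 543 and 474 in Het retina and 499, 671 and 613 in Het rods. The deposited values overlapped, whereas the scaled ones did not, and its log2 fold change of 0.51 (SE 0.16, adjusted p = 0.022) lay at the edge of the threshold. Leaving out a single library moved it to between 0.35 and 0.64, library size alone to 0.09, and the call was lost without Het retina replicate 1, 2 or 3 or Het rod replicate 2 or 3. The gene overlaps Dvl2 on the opposite strand by 2119 bases, and Dvl2 had values of at most 183 in any library.

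Both genes of the trifunctional protein were called higher in Het rods. Hadhb, which holds the thiolase, was 775, 710 and 824 in Het retina and 1443, 1312 and 1304 in Het rods, a log2 fold change of 1.06 (SE 0.12, adjusted p = 6e-05) that kept its call at 0.65 with library size alone. Hadha, which holds the hydratase and the dehydrogenase, was 1075, 1080 and 991 against 1438, 1388 and 1311, a log2 fold change of 0.64 (SE 0.11, adjusted p = 0.00081) that fell to 0.23 with library size alone and lost its call. A processed copy listed as Hadhb-ps held 0.304 to 0.350 times the value of Hadhb in Het retina and 0.329 to 0.371 times in Het rods, so the split of reads between the gene and its copy is uncertain.

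Acaa2, the thiolase of the matrix for shorter chains, was 166, 231 and 203 in Het retina and 59, 100 and 70 in Het rods. It was called lower, with a log2 fold change of -1.14 (SE 0.26, adjusted p = 0.0042), and the groups did not overlap. The 3 depleted members went in the same direction as the markers of the other retinal cells. Median log2 fold changes of those markers lay between -5.19 for bipolar and ganglion cells and -1.17 for cones. Acaa2, at -1.14, fell less than any of these medians. The part of the other cells in the values of the 3 members was not tested.

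The KO libraries gave the same contrast without sharing a library with the Het ones. KO rods differed from KO retina in all 10 members, 7 called higher and 3 lower, while 25.7% of the 16121 genes tested were called higher and 36.5% lower. The called rises were Acadm (log2 fold change 1.44), Cpt1a (1.33), Hadhb (1.03), Cpt2 (0.87), Acadvl (0.80), Hadha (0.65) and Slc25a20 (0.52), and the falls were Cpt1c (-4.19), Acadl (-3.62) and Acaa2 (-1.15). Limma adjusted p-values ran from 9.43e-06 for Cpt1c to 0.028 for Slc25a20. Cpt1c and Acadl passed the filter through their retina libraries here.

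Slc25a20 was the least certain of these calls. It was lost with library size alone, with RLE scaling, with the replicate block, and without KO retina replicate 1, 2 or 3 or KO rod replicate 1 or 2. With library size alone, 5 of the 10 members were called in the KO libraries, Cpt1a and Acadm higher and Cpt1c, Acadl and Acaa2 lower. Leaving out KO retina replicate 1 or 2 ended the calls of Cpt2 (0.55 and 0.52) and Hadha (0.40 and 0.46), and that of Cpt2 was also lost without KO rod replicate 3 (0.79, adjusted p = 0.057). KO retina replicate 3 stood high for Cpt2 at 475, against 268 and 257 in the other libraries of its group.

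**Figure D2:**
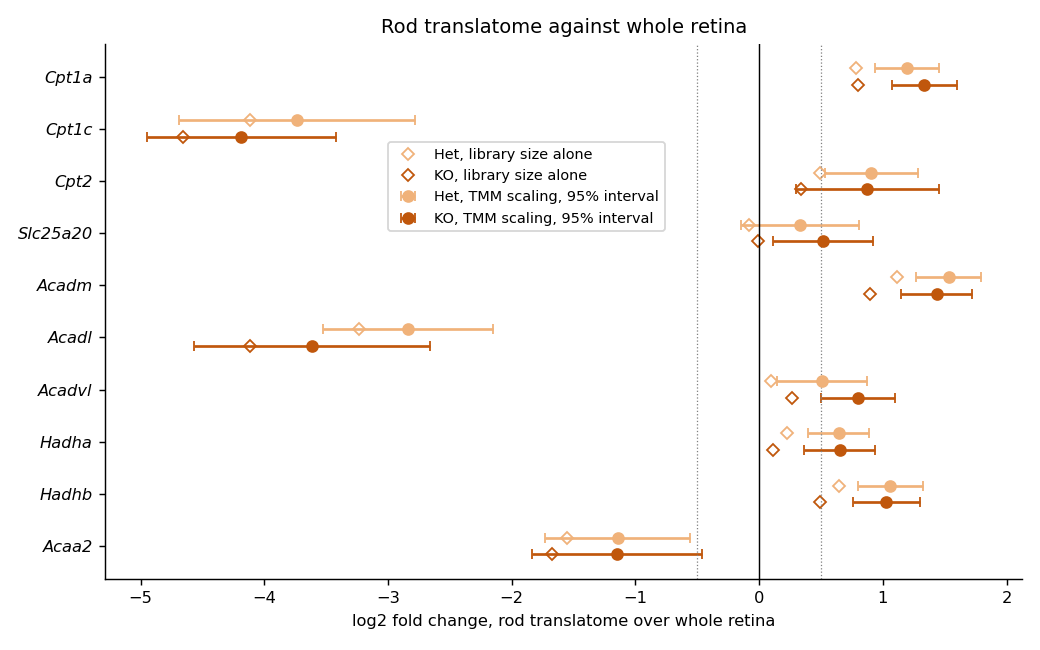
Log2 fold change of rod TRAP over whole retina for the 10 genes in Het and KO libraries, filled circles with 95% intervals for TMM scaling and open diamonds for library size alone, with dotted lines at the threshold of 0.5. Cpt1c, Acadl and Acaa2 lie left of -0.5 under both scalings, while Slc25a20 lies right of 0 with TMM and at -0.08 and -0.01 with library size alone.

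Ratios of members within a library gave the same contrast free of scaling, as a description. Per kb, Cpt1c was 0.0728 to 0.0994 times the level of Cpt1a in Het retina and 0.00119 to 0.00462 times in Het rods. Acadl was 0.0972 to 0.220 times the level of Acadm in Het retina and 0.00548 to 0.00748 times in Het rods. The rod libraries thus held almost only Cpt1a and Acadm of these pairs, and the groups lay more than 10 times apart.

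The balance between the messages of Hadha and Hadhb shifted as well. Its Hadhb side carries the uncertain split of reads with Hadhb-ps. Per kb, the ratio of Hadhb to Hadha was 1.44 ± 0.173 (SD, n = 3) in Het retina and 1.92 ± 0.0616 in Het rods, with ranges of 1.29 to 1.63 and 1.85 to 1.97 that did not overlap. In KO libraries it was 1.33 ± 0.179 in retina and 1.72 ± 0.133 in rods, again without overlap. Of the summed level per kb of the 10 members, Acadm took 28.5% to 31.6% in Het retina and 40.7% to 43.1% in Het rods.

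**Figure D3:**
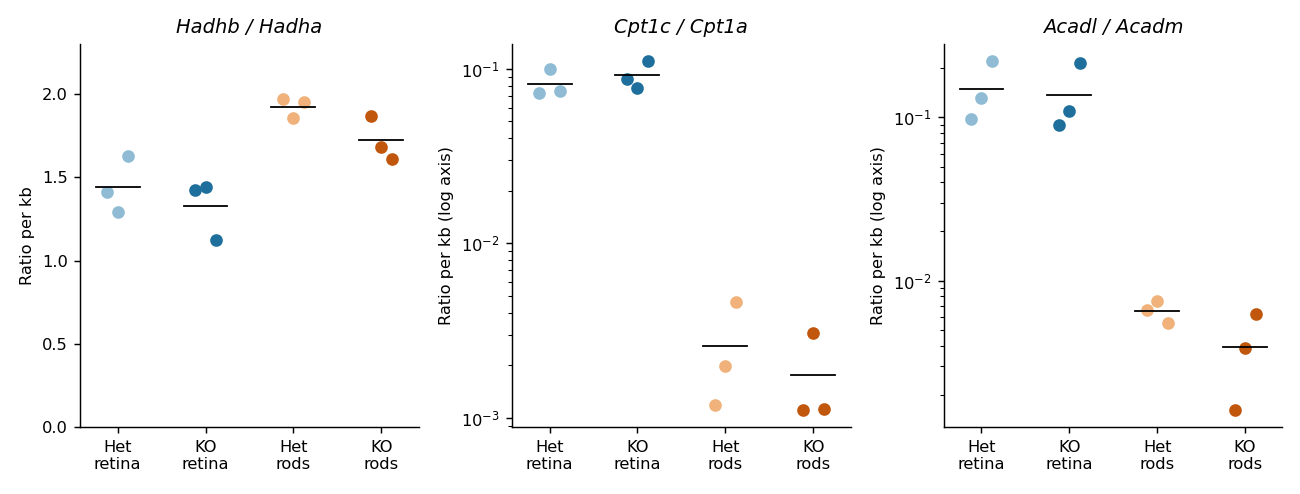
Ratio of the levels per kb of Hadhb to Hadha (linear axis from 0), Cpt1c to Cpt1a and Acadl to Acadm (log axes) in each library, with the mean of 3 as a line. Within each genotype the rod libraries lie higher than the retina libraries for Hadhb to Hadha, although the lowest KO rod library (1.61) lies under the highest Het retina library (1.63), and all 6 rod libraries lie lower than all 6 retina libraries for the other pairs.

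The comparison of KO rods with Het rods asked whether loss of Shp2 changed these messages in rods. The 5923 genes called depleted from the Het rod fraction had been removed as the study did, and with them Cpt1c, Acadl and Acaa2. None of the other 7 members was called (0 of 7), while 12.7% of the 10076 genes tested were called higher and 2.03% lower. With library size alone 1010 genes were called higher and 543 lower, in place of 1277 and 205. The median log2 fold change of the 7 was 0.02, beside -0.02 over all genes tested. For 6 of the 7, the 95% interval lay within 0.5 on either side of 0.

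Cpt1a was 6506, 7032 and 6359 in Het rods against 6974, 6082 and 6857 in KO rods, and the groups overlapped. Its log2 fold change was 0.10 (95% interval -0.07 to 0.26, adjusted p = 0.34), and its sign turned with library size alone and with the GC trend removed. Acadm, at 4843, 4997 and 4289 against 4636, 3867 and 3938, gave -0.09 (95% interval -0.29 to 0.11, adjusted p = 0.47). For the most abundant members the difference between genotypes was thus within the spread between libraries.

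Slc25a20 came closest to a call, at 196, 233 and 162 in Het rods against 257, 262 and 207 in KO rods. The log2 fold change was 0.40 (SE 0.16, 95% interval 0.04 to 0.76, adjusted p = 0.087), and the groups overlapped. It was called without Het rod replicate 2 (0.51, adjusted p = 0.042) and without KO rod replicate 3 (0.53, adjusted p = 0.041). Cpt2, at 382, 447 and 435 against 438, 416 and 517, gave 0.21 (95% interval -0.03 to 0.45, adjusted p = 0.17).

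Hadhb was 1443, 1312 and 1304 in Het rods against 1179, 1069 and 1178 in KO rods, lower in every KO library. The log2 fold change of -0.15 (95% interval -0.32 to 0.03, adjusted p = 0.18) was not called. Hadhb-ps followed it, at 475, 477 and 484 against 349, 354 and 412. Hadha, the partner of Hadhb, was 1438, 1388 and 1311 against 1237, 1246 and 1434 and gave 0.02 (95% interval -0.16 to 0.19), a value whose sign turned with library size alone (-0.08) and with the GC trend removed (-0.09). Acadvl gave -0.01 (95% interval -0.32 to 0.29). After scaling, Cpt2 and Hadhb were the 2 members of 7 whose groups did not overlap, and 48.2% of all genes tested had groups that did not overlap.

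The removed members were read from a fit that kept all genes, in which 10.8% of 13055 genes were called higher and 2.34% lower. Acadl was 30, 35 and 22 in Het rods against 7, 14 and 23 in KO rods, with a log2 fold change of -0.94 (SE 0.38, 95% interval -1.75 to -0.12, adjusted p = 0.086), having passed the filter through its Het libraries. It was called without KO rod replicate 3 (-1.25, adjusted p = 0.032). Müller glia markers made up 0.0127% to 0.0219% of Het rod and 0.0136% to 0.0191% of KO rod values, ranges that overlapped, and 2 of the 8 of these markers tested in this fit were called higher in KO rods and 0 lower, with a median log2 fold change of 0.21 and a highest of 1.02. Their part in the value of Acadl was not tested. Acaa2, at 59, 100 and 70 against 56, 71 and 69, gave -0.13 (95% interval -0.61 to 0.36, adjusted p = 0.70). Cpt1c, at 5, 9 and 19 against 5, 12 and 5, was below the filter in rods, and without the filter its log2 fold change was -0.36 (adjusted p = 0.64).

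In whole retina, 0 of the 10 members and 0 of 16863 genes were called between KO and Het by limma, 0% of those tested, and 140 genes had an unadjusted p below 0.05. Members' log2 fold changes ran from -0.28 for Acadvl to 0.27 for Cpt2, with adjusted p-values of 0.9999. Acadvl was 465, 543 and 474 in Het retina and 405, 426 and 385 in KO retina, without overlap, while 3.52% of all genes tested had groups that did not overlap. Intervals were wider than in rods, and for 4 of the 10 (Cpt1a, Acadm, Hadha and Hadhb) they lay within 0.5 of 0. For Cpt2 the interval ran from -0.38 to 0.93, and for Acadl from -0.92 to 0.71.

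The KO effect in rods was also set against that in retina as an interaction over all 12 libraries. None of the 10 members was called (0% of 17192 genes were, with 562 at an unadjusted p below 0.05). The largest member value was -0.83 for Acadl (95% interval -1.99 to 0.34, adjusted p = 0.92), followed by -0.50 for Cpt1c (95% interval -1.70 to 0.70). For Slc25a20 the interaction was 0.14 (95% interval -0.42 to 0.71).

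**Figure D4:**
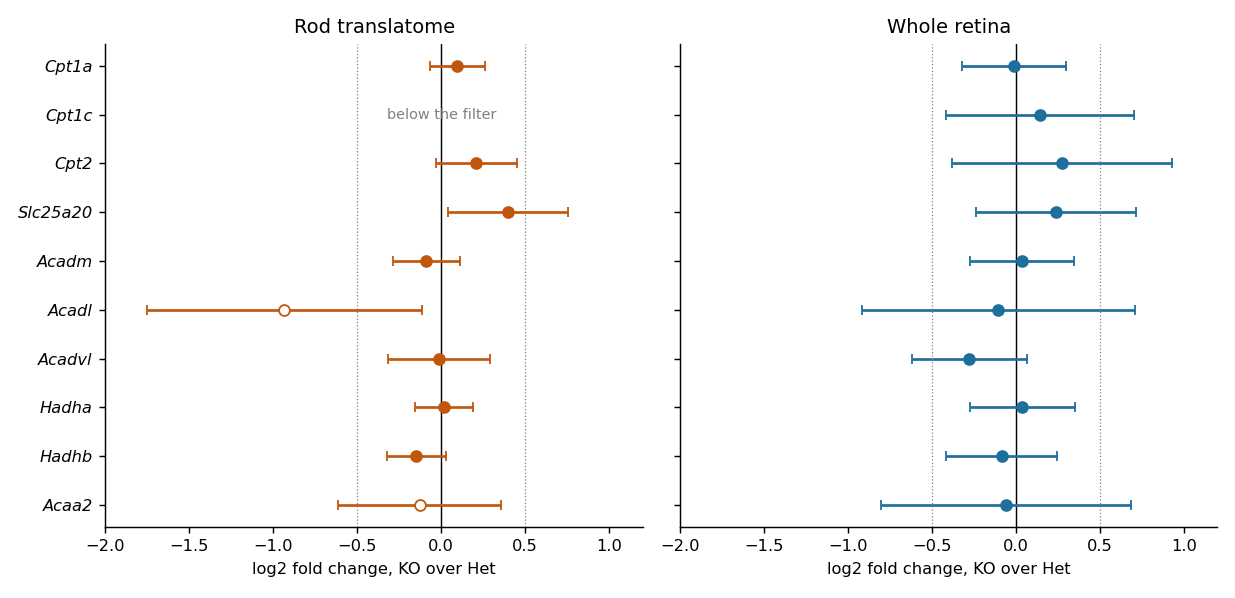
Log2 fold change of KO over Het with 95% intervals for the 10 genes in rod TRAP (left) and whole retina (right), with dotted lines at 0.5 on either side. Open circles mark Acadl and Acaa2, read from the fit that kept rod-depleted genes, and Cpt1c was below the filter in rods. All points but Acadl in rods lie between -0.5 and 0.5.

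Changes in KO rods went with the GC content of the transcript across all genes. Spearman's correlation across genes was 0.73, a description over genes that share the same libraries, and the median log2 fold change rose from -0.28 in the tenth of genes with the lowest GC content to 0.72 in that with the highest. Transcripts of the members held 45.1% GC (Acadl) to 57.6% GC (Cpt1c). Genes within 1 percentage point of GC of each tested member had median log2 fold changes of -0.17 at Hadhb, -0.08 at Acadm, 0.01 at Slc25a20, 0.08 at Cpt1a and Hadha, 0.16 at Cpt2 and 0.24 at Acadvl. Hadhb, Acadm, Cpt1a, Cpt2 and Hadha lay within 0.07 of these medians, Slc25a20 lay 0.39 higher and Acadvl differed by -0.25. Removal of the GC trend left 331 genes called and 0 of the 7 members. The part of GC content in the members' values was not otherwise tested.

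**Figure D5:**
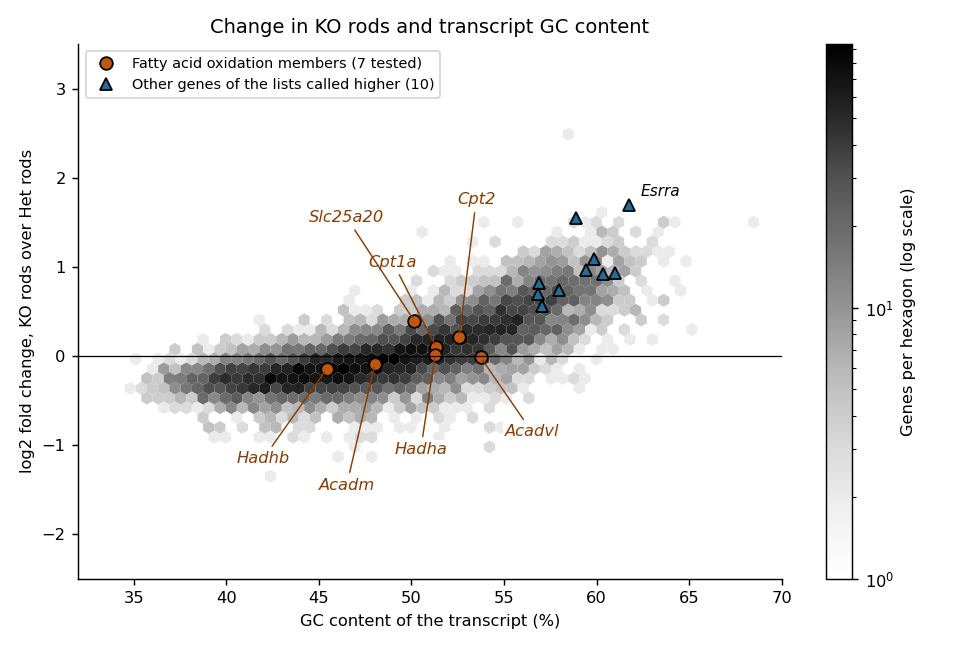
Log2 fold change of KO over Het rods against transcript GC content for all genes tested (grey hexagons, darker for more genes on a log scale), with the 7 tested members (circles) and the 10 other genes of fatty acid handling called higher (triangles). The members lie near the centre of the cloud between 45.4% and 53.7% GC, while the triangles lie in its GC-rich arm.

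Around the 10 members, 77 genes of fatty acid handling in 10 lists were read in the same fits. In Het rods against Het retina 69 were tested, 15 called higher and 22 lower, beside 21.4% higher and 36.8% lower over all genes tested. Their median log2 fold change was -0.03, beside -0.11 over all genes. With library size alone the counts were 9 higher and 31 lower. The counts of single lists in Het rods, given below, are to be read beside the 21.4% and 36.8% over all genes tested. In KO rods against Het rods 48 were tested, 10 called higher and 0 lower, beside 12.7% higher and 2.03% lower over all genes tested. With library size alone 9 were called higher and 3 lower (Acat1 and Eci2 among them), and with the GC trend removed 1 remained higher (Esrra) and 1 was lower (Eci2), out of those 48. In the fit of KO and Het rods that kept rod-depleted genes 63 were tested, 14 called higher and 1 lower. Among those higher, Acacb was 11, 3 and 7 in Het rods against 19, 29 and 32 in KO rods. Etfb was 7, 11 and 5 against 16, 43 and 20. Both passed the filter through their KO libraries, as did Acaa1b, so their calls were bound to be rises. Over all genes of that fit 10.8% were called higher and 2.34% lower. In whole retina 0 of 71 were called between genotypes.

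Ahead of the carnitine shuttle, acyl-CoA synthetases activate fatty acids, and 2 of the 11 genes tested for activation and carnitine supply were called higher in Het rods and 6 lower. Acsl6, which prefers docosahexaenoic acid, was 3778, 3641 and 3347 in Het retina and 5836, 6079 and 5774 in Het rods (log2 fold change 0.97, adjusted p = 4.52e-05). Acsl1, a synthetase that feeds oxidation in many tissues, rose by 1.15 on that scale and Acsl3, of lipid droplets and the endoplasmic reticulum, fell by 1.27. Both Acsl6 and Acsl1 kept their call with library size alone. The lowest values were those of Slc22a4, a transporter of organic cations (-2.97, at 0 or 1 in rod libraries), and Acot2, a mitochondrial thioesterase (-2.04) whose reads may be shared with its near copy Acot1.

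Among the other acyl-CoA dehydrogenases 4 of 9 were called higher in Het rods and 1 lower. Acad11 (log2 fold change 1.16) and Acad8 (0.93), which acts in valine breakdown, rose under both scalings. Acads, the short-chain enzyme, was 24, 41 and 16 in Het retina and 1, 1 and 5 in Het rods (-2.60, adjusted p = 0.0013). It passed the filter through retina, as did Slc22a4, Acot2, Etfb, Acacb, Ucp2, Fabp3 and Lpl. Acadsb, for branched short chains, gave 0.35 (adjusted p = 0.081). Among the straight-chain forms, Acads and Acadl were thus low in rods, and Acadm and Acadvl were not.

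Of the 8 short-chain and auxiliary genes, 1 was called higher in Het rods (Eci1, an enoyl-CoA isomerase, 0.68) and 1 lower (Decr1, the dienoyl-CoA reductase for unsaturated chains, -1.24). Eci1 lost its call with library size alone, at 0.27. Acat1 (0.39, adjusted p = 0.086) and Echs1 (0.19, adjusted p = 0.24), the most abundant of this list, were not called. Electrons from the dehydrogenases pass through Etfa and Etfb to Etfdh. Etfa was called higher (0.88, and 0.47 without a call with library size alone), Etfb lower (-1.30, adjusted p = 0.025, from values of 20, 43 and 17 to 7, 11 and 5), and Etfdh gave 0.17 (adjusted p = 0.41).

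The 3 genes of the malonyl-CoA brake set the supply of the inhibitor of Cpt1a. Acacb, the carboxylase at the mitochondrial membrane, was called lower in Het rods, at 39, 56 and 36 in Het retina and 11, 3 and 7 in Het rods (-2.21, adjusted p = 0.0014). Acaca, the cytosolic carboxylase, gave 0.48 and stayed just under the fold threshold, and Mlycd, which breaks malonyl-CoA down, gave -0.03. Of 7 tested regulators of transcription 2 were called higher and 0 lower, Ppargc1a, a coactivator of mitochondrial genes (1.11), and Nrf1 (1.05), both also with library size alone. Esrra, at 124, 206 and 58 in Het retina and 42, 59 and 39 in Het rods, gave -1.04 (adjusted p = 0.062), and was called lower with library size alone (-1.44) and with the replicate block (adjusted p = 0.012).

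All 4 tested outputs of PPAR were called lower in Het rods, among them the uncoupling protein Ucp2 (-4.39). Ucp2 was 286, 366 and 582 in Het retina and 4, 14 and 41 in Het rods. Uptake and binding genes had 1 of 8 higher and 4 lower. Vldlr, a lipoprotein receptor, was 7559, 5612 and 7100 in Het retina and 14348, 12639 and 12865 in Het rods (1.23, adjusted p = 4.22e-05), and its call held with library size alone. Lpl, the lipoprotein lipase (-5.52), and Fabp3, a fatty acid binding protein (-4.06), were lowest. Fabp5 ran from 287 to 3934 in Het retina and gave -2.59 without a call (adjusted p = 0.10), but was called with the replicate block (adjusted p = 0.0040).

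In peroxisomes, which shorten very long chains, 2 of 11 genes were called higher in Het rods and 3 lower. Scp2 (0.89) and Hsd17b4 (0.55) were higher, without a call with library size alone (0.47 and 0.14). Crot, which makes medium-chain acylcarnitines there, was lower (-3.54). Of 5 genes of ketone body use 2 were called higher and 1 lower. The monocarboxylate carrier Slc16a1 (1.58) and Oxct1, which activates acetoacetate (0.97), were higher under either scaling.

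In KO rods the 10 list genes called in the main fit were Esrra, Acaa1b, Ppard, Acaa1a, Mlycd, Slc25a29, Aacs, Acot8, Slc27a4 and Rxra. Their log2 fold changes ran from 1.69 to 0.56. Esrra, an orphan nuclear receptor that acts on Acadm in other tissues, was 42, 59 and 39 in Het rods against 133, 179 and 123 in KO rods (1.69, SE 0.22, adjusted p = 0.0026). With the GC trend removed it was 0.75 (adjusted p = 0.013), whereas Ppard, a receptor for fatty acids, went from 1.08 to 0.28 (adjusted p = 0.073), Mlycd from 0.93 to 0.05 and Rxra from 0.56 to -0.02. The carrier Slc25a29 (0.92), the fatty acid transporter Slc27a4 (0.69), Aacs of ketone use (0.82), the peroxisomal thiolase Acaa1a (0.96) and its near copy Acaa1b (1.55) likewise lost the call, at 0.08, 0.14, 0.26, 0.19 and 0.82. Acaa1b, at 10, 7 and 8 in Het rods against 26, 27 and 26 in KO rods, passed the filter through its KO libraries.

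Eci2, an enoyl-CoA isomerase outside the naming rule and chosen after its values were seen, was 272, 224 and 278 in Het rods against 170, 188 and 173 in KO rods. Its log2 fold change was -0.44 (adjusted p = 0.035), short of the fold threshold, and -0.57 (adjusted p = 0.013) with the GC trend removed. Acat1 gave -0.46 (adjusted p = 0.022) and was called with library size alone at -0.56. Etfa (-0.27, adjusted p = 0.055), Etfdh (-0.28, adjusted p = 0.068) and Vldlr (-0.32, adjusted p = 0.011) had no overlap between KO and Het rods and were not called. Over all genes tested in this comparison, 48.2% had groups that did not overlap.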

How the data were processed

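Libraries were made by polyribosome pull-down (rods) or from total lysate (retina), with polyA RNA amplified by a SMART-Seq kit. Per the labels, the submitters' processing notes name CASAVA 1.8.2, HISAT2, DESeq2, edgeR and the build GRCm39, without their roles. The strand of counting is not given in the sources used here. The deposited values are a signal, whole numbers proportional to reads: from the values, the authors' processing multiplied each library by 1 factor and rounded, which is inferred and not stated, so a count model was not used. For replicate 3 of Het retina factors of 0.992 and 1 matched the values equally well, and 0.992 was taken. Columns of other samples numbered 0.

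Samples were grouped by genotype and tissue. Values were scaled by TMM factors, and log2(value + 2) was tested with limma 3.58.1 in R 4.3.3 (trend and robust options) over all genes with a value of 10 in at least 3 libraries and a sum of at least 15, so that fold changes of low genes are understated. Only the groups compared entered a fit, except for the interaction. Adjusted p-values are Benjamini-Hochberg values over all genes of a fit. Genes depleted from the Het rod fraction were left out of the main comparison of KO with Het rods. With 3 libraries against 3 an exact permutation test cannot go below p = 0.1, so none was run. The method was tested on simulated data in which few genes changed, as many up as down. Those data do not cover the scaling between rods and retina. Python 3.11.15 with numpy and matplotlib made the other values and figures.

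The members and lists were chosen with earlier results of these data known. All 10 members are named, and of each list the 2 genes with the highest mean and at most 2 rises and 2 falls in Het rods against Het retina and in KO against Het rods, among called genes whose groups do not overlap. Some genes that this rule names are not reported here. Positions are those of GRCm38 (GENCODE M21, RefSeq), and builds were not mixed. Same-numbered libraries of Het rods and Het retina deviated together (correlations 0.43, 0.39 and 0.24 over replicates 1, 2 and 3), as the titles' numbers would pair them. Those of the other comparisons did not in every pair (lowest 0.03 for KO rods and KO retina, 0.02 for KO and Het rods, -0.58 for KO and Het retina). Alternatives were RLE scaling, library size alone, pseudocounts of 1 and 8, no filter, the replicate block, removal of the GC trend, all 12 libraries in 1 fit, rod-depleted genes kept, and each library left out.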

Additional observations from a re-analysis of the deposited data

How the results depend on the processing

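Against the main results, other scalings, pseudocounts, filters and the replicate block left the counts of members and genes called, in both directions together, within 1.5 times, except that library size alone gave 5 members called in KO rods against KO retina. The replicate block changed 1 call among the members, Slc25a20 in KO rods against KO retina (0.52, adjusted p = 0.064). Genes called in KO rods against Het rods numbered 331 with the GC trend removed, 369 with that and the block, and 0 with all 12 libraries in 1 fit. Without 1 library they numbered 929 (without Het rod replicate 1) to 1730, against 5339 (without Het retina replicate 1) to 8729 for Het rods and retina and 5801 to 9405 for KO rods and retina, the lowest without KO retina replicate 1 or, at 6415, replicate 2. In KO rods 0 to 1 member was called, and in KO retina against Het retina and in the interaction 0 to 1 gene. The causes were not tested.

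Signs turned only for members that were not called, with Slc25a20 in KO rods against KO retina as the exception. With library size alone Slc25a20 was -0.0792 (Het) and -0.0123 (KO) in rods against retina, and Cpt1a was -0.0001 and Hadha -0.0811 in KO rods. With the GC trend removed, and also with the block, Cpt1a was -0.0161 and Hadha -0.0941 in KO rods, and the interaction of Hadhb was 0.0512. Hadha was -0.0153 with rod-depleted genes kept and -0.0149 with all 12 libraries. Leaving out 1 library moved KO rods from -0.1641 to 0.0932 for Acadvl, -0.0298 to 0.0499 for Hadha and, with all genes kept, -0.2782 to 0.0894 for Acaa2. It moved KO retina from -0.0839 to 0.0421 for Cpt1a, -0.0375 to 0.4677 for Cpt2, -0.0157 to 0.106 for Acadm, -0.4079 to 0.1588 for Acadl, -0.0331 to 0.1122 for Hadha and -0.4074 to 0.1791 for Acaa2. Interactions moved from -0.0567 to 0.1665 for Cpt1a, -0.2754 to 0.1934 for Cpt2, -0.0904 to 0.2298 for Slc25a20, -0.2164 to 0.0172 for Hadhb and -0.3194 to 0.255 for Acaa2. Cpt1c rested on 4 to 16 estimated reads in each rod library.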
